A study of Mus musculus with 4 samples.

Results

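Progenitors without Gfra1 transcripts were examined among sorted undifferentiated spermatogonia (A_undiff) of control (CTRL) and busulfan-treated (BU) mice. A cell was taken as a progenitor when it held no UMI (unique molecular identifier, a count of 1 captured transcript) of Gfra1 and was rich in Neurog3, Sox3 and Rarg. The measure was N, the natural log of 1 plus 100000 times the share of a cell's UMIs, and N of the summed UMIs of these 3 genes had to be over 2.7. N of Kit could be at most 3, N of Stra8 at most 2.5, and the haploid and meiotic genes Ldhc, Meig1, Crisp2, Acrv1 and Spink2 had to take under 0.5% of UMIs. These 11 genes therefore chose the cells, and their levels are given as a description without a test. The rule found 1692 progenitors among 7493 cells, each with more than 1000 genes detected and less than 20% of its UMIs from mitochondrial genes. CTRL supplied 1519 of them and BU 173.

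CTRL mice were untreated adult wild-type males of 6 to 8 weeks. BU mice were adult wild-type mice of the same age given a single dose of 10 mg/kg busulfan, an alkylating agent that damages DNA and depletes spermatogonia, and were examined at day 10. Cells of both groups were sorted as positive for E-cadherin and CD49f (α6-integrin) and negative for c-KIT, pooled from 3 mice per library, and run in 2 experiments with 1 CTRL and 1 BU library each. The labels give the 10x Chromium kit as version 2 for experiment 1 and version 3.1 for experiment 2. By the paper's methods, both libraries of an experiment shared a sequencing lane. A gate on c-KIT protein and a limit on Kit and Stra8 transcripts both bound the population toward differentiation, so cells past that point were not examined.

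A_undiff comprise spermatogonial stem cells (SSCs) together with the progenitors they form. SSCs carry GFRA1, the receptor through which they sense GDNF, and progenitors lose it as they gain NEUROG3, SOX3 and the retinoic acid receptor RARG. RARG lets progenitors respond to retinoic acid, which drives them to express Stra8 and Kit and to differentiate. Progenitors can return to an SSC state when the stem cell pool is depleted.

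The progenitors supplied 9921863 UMIs in CTRL 1 (1126 cells), 14991722 in CTRL 2 (393 cells), 1281964 in BU 1 (126 cells) and 1548238 in BU 2 (47 cells). Their median depth per cell was 8509 (CTRL 1) and 9792 UMIs (BU 1) in experiment 1 and 34621 (CTRL 2) and 33887 UMIs (BU 2) in experiment 2, so depth differed between experiments far more than between conditions. Levels below are CPM, a gene's share of the UMIs summed over the progenitors of a library on a scale that adds to 1000000, without scaling for gene length. Where 4 values follow each other they belong to CTRL 1, CTRL 2, BU 1, BU 2 as listed here. CTRL 2 and BU 2 shared 677 cell barcodes, CTRL 1 and BU 1 shared 11, and CTRL 2 and BU 1 shared 1. Over all barcodes in the files, those shared had a median of 933 UMIs in CTRL 2 and 48289 in BU 2. Among progenitors, a barcode listed by another library was held by 4 cells of CTRL 1 and 34 of CTRL 2, and for BU 1 and BU 2 by 1 and 15 cells. These progenitors were not shallow, with a median of 49106 UMIs in CTRL 2 and 48062 in BU 2. The part of these barcodes in any difference was not tested.

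Progenitors made up a smaller share of sorted cells after BU. They were 36.3% of passing cells in CTRL 1 (1126 of 3101, exact binomial 95% interval 34.6% to 38.03%) and 35.1% in CTRL 2 (393 of 1120, 32.3% to 37.97%). In BU 1 they were 6.27% (126 of 2008, 5.25% to 7.43%) and in BU 2 3.72% (47 of 1264, 2.74% to 4.91%). Both BU libraries lay below both CTRL libraries, with means of 4.997% ± 1.81 and 35.7% ± 0.864 (SD, n = 2 each). The share was 5.79 times lower within experiment 1 and 9.44 times lower within experiment 2. The exact permutation test, two-sided, gave p = 0.333, which is the smallest that 2 libraries against 2 allow. These intervals cover counting error only, and a share of sorted cells does not give the number of progenitors in a testis.

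Depth entered the choice of cells, since a lone UMI of Neurog3, Sox3 or Rarg put a cell over the limit when the cell held fewer than 7205 UMIs. Progenitors with only 1 UMI of the 3 genes made up 13.7% and 1.78% of the CTRL members and 13.5% and 4.26% of the BU members. When cells were randomly thinned to a depth of 5000 UMIs, leaving out 275, 113, 80 and 94 shallower cells, the share was 40.7% and 40.6% in CTRL 1 and CTRL 2. It was 8.82% in BU 1 and 9.06% in BU 2, so the CTRL mean was 4.55 times the BU mean at this depth against 7.14 times as deposited. Members chosen at this depth were another set of cells, 106 in BU 2 against 47 as deposited. Only 1 UMI of the 3 genes was held by 48.9% and 42.8% of them in CTRL 1 and CTRL 2, and by 65.3% and 68.9% in BU 1 and BU 2. Gene tests after thinning used these members. Without cells that shared a barcode the shares were 36.3%, 40.1%, 6.26% and 4.32%. With Neurog3 alone in place of the 3 genes, progenitors were 9.997% of CTRL 1 and 1.79% of CTRL 2, but 1.10% of BU 1 and, from 2 cells, 0.158% of BU 2. CTRL 2 and BU 1 then differed little, and the lower share in BU was seen within each experiment.

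**Figure D1:**
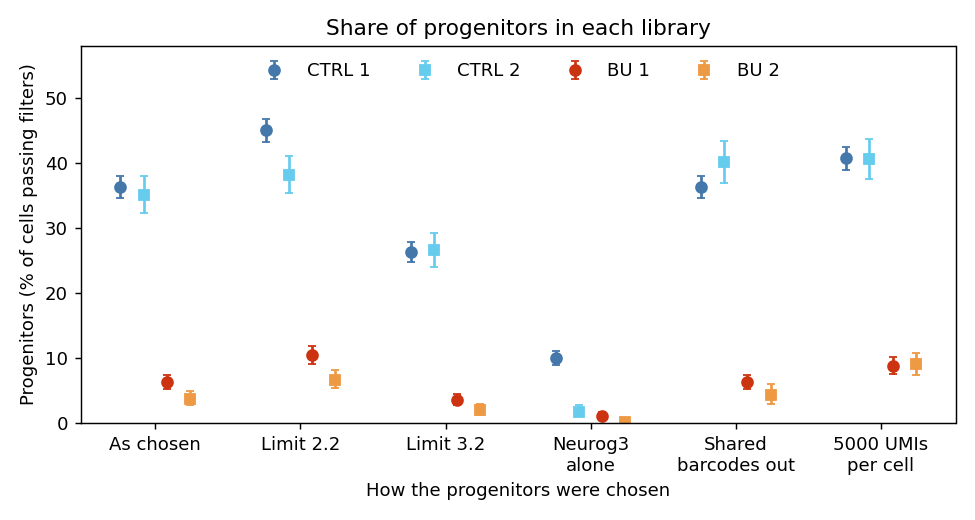
Share of progenitors among cells passing filters (y axis, %) in each library, under 6 ways of choosing them (x axis). Points are libraries and bars are exact binomial 95% intervals. The BU libraries sit below both CTRL libraries in every column, from 3.72% to 6.27% as chosen and from 8.82% to 9.06% at 5000 UMIs per cell.

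The steps of the rule removed different parts of the libraries. Of passing cells, 46.1% and 50.4% of the CTRL libraries and 14.8% and 10.05% of the BU libraries exceeded the limit for the summed genes. The absence of a Gfra1 UMI then kept 91.8%, 74.6%, 82.8% and 61.4% of them. The limit on Kit, the receptor of differentiating spermatogonia, kept every cell in CTRL 1 and 99.5% in CTRL 2 but 84.96% and 87.2% in BU 1 and BU 2. The limit on Stra8, a gene induced by retinoic acid, kept 86.1% and 94.3% in the CTRL libraries and 60.3% and 70.6% in the BU libraries. Cells with Neurog3, Sox3 or Rarg and no Gfra1 were therefore set aside for Kit or Stra8 transcripts more often in both BU libraries than in either CTRL library.

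Among the genes that define the progenitors, Sox3, a SOX family transcription factor, was the most abundant. It stood at 187 and 228 CPM in CTRL and at 155 and 210 CPM in BU. Neurog3, a basic helix-loop-helix factor, was at 99.6, 46.0, 67.2 and 30.5 CPM, and so was higher in experiment 1 than in experiment 2 in both conditions. Rarg was at 72.9, 54.9, 69.5 and 33.1 CPM. Kit was at 0.505 and 1.67 CPM in CTRL 1 and CTRL 2 and at 17.2 and 21.4 CPM in BU 1 and BU 2, although every cell met the same limit. Stra8 was at 5.55, 8.23, 6.25 and 15.6 CPM. The median progenitor held 32.02 and 30.9 UMIs of the 3 genes per 100000 in CTRL against 24.7 and 24.05 in BU, where the limit corresponds to 13.9. The lowest member and the highest cell left out by that limit were at N of 2.701 and 2.696 in CTRL 1, and at 2.704 and 2.682 in BU 2. Within 0.2 of the limit lay 102 members and 142 cells outside for CTRL 1, 22 and 21 for CTRL 2, 23 and 33 for BU 1, 11 and 15 for BU 2.

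The 3 genes were not found in every progenitor. As deposited, a UMI of each was held by 203 of 1126 and 218 of 393 cells of the CTRL libraries, and by 21 of 126 and 14 of 47 cells of the BU libraries. Thinned to 5000 UMIs and chosen again, 36.3% of progenitors in CTRL 1 and 31.8% in CTRL 2 held at least 2 of the genes, against 24.1% in BU 1 and 8.49% in BU 2. Progenitors with Sox3 as their only gene made up 40.9%, 50.4%, 50.6% and 74.5% of them. All 3 genes were found in 3.83% and 4.16% of these CTRL progenitors and in 2.94% and 0.943% of the BU progenitors. These genes chose the cells, so the values are a description.

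The label was checked against genes that the rule did not use. Upp1, which encodes uridine phosphorylase 1 and marks progenitors, was detected in 66.9% of CTRL 1 progenitors (710 of 1061) and 59.0% of CTRL 2 progenitors (226 of 383) after thinning to 5000 UMIs. In BU it was detected in 23.1% (28 of 121) and 36.4% (16 of 44). Comparison cells were the Gfra1+ cells, those with N of Gfra1 over 2 and the same limits on Kit, Stra8 and late genes (1751 cells, of which 652 were CTRL and 1099 BU). They held Upp1 in 19.9%, 19.2%, 2.87% and 1.77% of cells, and their median depth before thinning was 7065, 26044, 10203 and 37495 UMIs. Cells within the same limits but in neither class held Upp1 in 42.4%, 31.8%, 6.91% and 7.25%. Upp1 was thus more frequent in progenitors than in the other cells of the same library. Such cells of CTRL 1 held it more often than BU 1 progenitors, and those of CTRL 2 less often than BU 2 progenitors. SSC genes were low in the progenitors. Lhx1, a LIM homeobox factor of SSCs, was detected after thinning in 0.848%, 0.522%, 0.826% and 4.55% of progenitors and in 18.9%, 29.4%, 45.5% and 43.8% of Gfra1+ cells. Zbtb16, the PLZF gene shared by all A_undiff, was at 241, 244, 308 and 150 CPM in progenitors and at 208, 216, 222 and 136 CPM in Gfra1+ cells.

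The genes that separated progenitors from Gfra1+ cells in all libraries are given as a description, because Gfra1 and the progenitor genes divided the cells. Of 13655 genes, 35.8% differed, 17.1% being higher and 18.7% lower in progenitors, at an adjusted p under 0.05 (edgeR), and nothing is read from these shares. The order given here is among genes with a mean of 20 CPM or more over both classes. Highest relative to Gfra1+ cells was Ifitm1, an interferon-induced transmembrane protein gene, at 74.5 against 10.4 CPM in CTRL 1 and 58.7 against 5.53 CPM in CTRL 2. It was followed by the heat shock gene Hspa1a, the imprinted gene Phlda2, the IGF-binding protein gene Igfbp6, Upp1 and the secreted protein gene Cthrc1. Lowest were Lhx1 and Nefm, which encodes a neurofilament subunit and marks SSCs. Nefm was at 3.74 CPM in progenitors and 74.6 CPM in Gfra1+ cells of CTRL 1, and at 38.2 and 422 CPM in BU 2. Gstm2, Plvap, Plekhh3 and Mpzl2 completed the 6 genes lowest in progenitors.

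**Figure D2:**
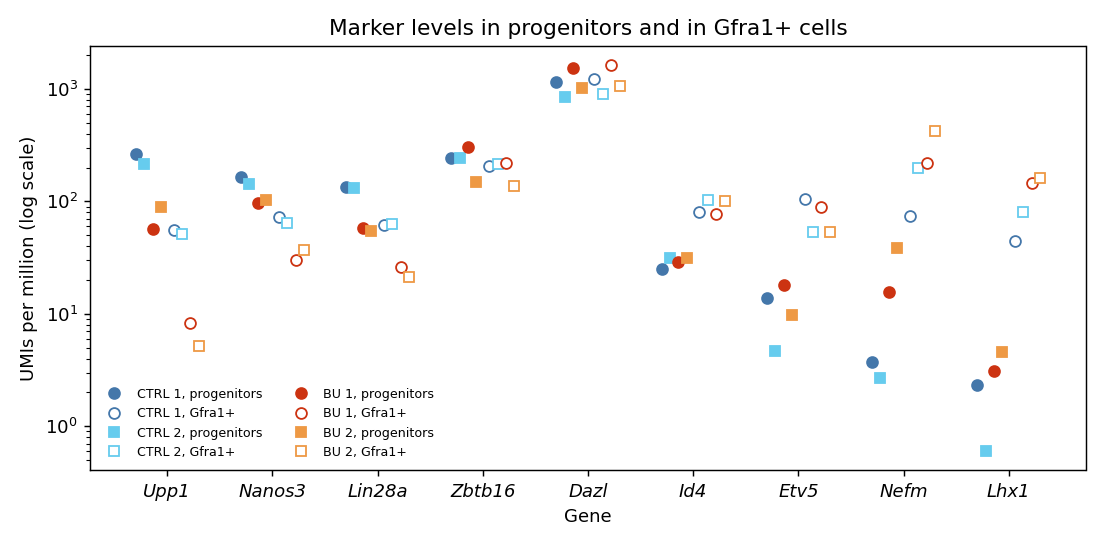
Levels of 9 genes not used to choose the cells (CPM, log axis) in progenitors (filled symbols) and Gfra1+ cells (open symbols), with 1 symbol per library. Upp1 was higher in progenitors of each library, Nefm and Lhx1 were lower, and Upp1 in progenitors was at 263 and 214 CPM in CTRL against 57.0 and 90.1 CPM in BU.

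BU was compared with CTRL within the progenitors on UMIs summed per library. With condition as the only term, no gene of 12564 passed the threshold (edgeR quasi-likelihood test, Benjamini-Hochberg adjusted p under 0.05), 602 had an unadjusted p under 0.05, and DESeq2 called 16. The libraries of an experiment deviated from their group means together (correlation 0.454 across genes). With the experiment as a replicate block, 135 genes rose (1.07%) and 46 fell (0.366%), together 181 of 12564 (1.44%), and 174 of them moved in the same direction in both experiments. The BU and CTRL libraries did not overlap for 169 of the 181, which the test had chosen, and for 33.5% of all 12564. Without the cells that shared a barcode, the block gave 46 genes, of which 45 were among the 181. Adjusted p-values for BU against CTRL are those of the block, and each gene named for this comparison was at an adjusted p over 0.3 without it. With so few libraries the block leaves little to measure a gene's own spread, so its p-values rest on a spread shared over genes. They do not measure agreement between experiments. Hist1h1a passed at log2 ratios of BU over CTRL of 5.12 in experiment 1 and 0.32 in experiment 2. All fold changes are for progenitors, where the median log2 fold change over all genes was 0.02 and 51.8% of genes were above 0. Counts for the lists below stand beside these shares of 1.07% rising, 0.366% falling and 51.8% above 0.

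Progenitor genes stood lower in BU. All 8 of the list fixed for progenitors had a log2 fold change below 0 (median -0.75), and 2 of them fell (the other 6 did not pass). Upp1 was at 263 and 214 CPM in CTRL 1 and CTRL 2, and at 57.0 and 90.1 CPM in BU 1 and BU 2, with no overlap. The log2 fold change was -1.72 (SE 0.27, adjusted p = 1.68e-07), a level 3.29 times lower. Lin28a, which encodes an RNA-binding protein that blocks let-7 maturation, was at 135 and 131 CPM in CTRL against 58.6 and 55.1 CPM in BU (log2 fold change -1.24, SE 0.29, adjusted p = 0.00292), and missed the threshold without shared barcodes (log2 fold change -1.19, edgeR adjusted p = 0.068) and after thinning. Nanos3, another RNA-binding protein gene of germ cells, was at 166 and 143 CPM in CTRL against 96.1 and 103 CPM in BU (adjusted p = 0.272). Ddit4, an inhibitor of mTORC1, was at 157, 102, 104 and 66.1 CPM (adjusted p = 0.32), and Sohlh1, a spermatogonial transcription factor, was at 547, 316, 415 and 292 CPM (adjusted p = 0.723). In mouse GRCm38 with the GENCODE M21 annotation, Upp1 lies on chromosome 11 (9118103 to 9136170) and Lin28a on chromosome 4 (134003330 to 134018841). With the stricter limit of 3.2 on the summed genes, the list's median was -0.46, and Upp1 alone of the list was called. With Neurog3 alone and the block it was -0.53, 2 of 6 tested were above 0 and none was called, Upp1 and Lin28a included. Without CTRL 1, in a fit without the block, the median was -1.19 against -0.76 with all libraries.

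SSC genes were low in progenitors, and 2 of 12 tested members rose in BU while none fell. With the block 9 of the 12 were above 0 (median log2 fold change 0.63), against 51.8% of all genes. In the fit without the block the median was 0.52, and it moved to -0.04 without BU 1 and to -0.06 without CTRL 2, so the direction of the list rested on these libraries. Nefm was at 3.74 CPM in CTRL 1 and 2.68 CPM in CTRL 2 (37 and 40 UMIs), and at 15.6 and 38.2 CPM in BU 1 and BU 2 (20 and 59 UMIs). The log2 fold change was 3.02 (SE 0.42, adjusted p = 1.73e-09). Lhx2, a LIM homeobox factor, was at 6.97 and 5.55 CPM in CTRL against 19.5 and 14.3 CPM in BU (log2 fold change 1.41, SE 0.41, adjusted p = 0.0455), and was not called without shared barcodes (log2 fold change 1.52, edgeR adjusted p = 0.169), without doublets or after thinning. Nor was Lhx2 called with RLE scaling, with DESeq2, without the low-count filter or at a mitochondrial limit of 10%. At a late-gene limit of 0.1% it narrowly missed (log2 fold change 1.39, edgeR adjusted p = 0.0522). After thinning the SSC genes called were Nefm and Lhx1. Nefm remained far below its level in Gfra1+ cells, which was 220 CPM in BU 1 and 422 CPM in BU 2. Id4, an inhibitor of basic helix-loop-helix factors, was at 25.04, 31.2, 28.9 and 31.1 CPM (adjusted p = 0.969). With the limit of 3.2, the median of the 9 SSC genes tested was 0.13 and none of them was called. The limit on Gfra1 removed a larger part of the cells in experiment 2, where depth was greater, and the part of missed Gfra1 transcripts in these values was not tested.

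Of the 7 genes shared by all A_undiff none passed, with a median log2 fold change of -0.18. In fits without the block the median was -0.11 with all libraries, 0.09 without BU 2 and -0.60 without BU 1. Dazl, a germ cell RNA-binding protein gene, was at 1145, 841, 1526 and 1027 CPM, and Ddx4, a germ cell RNA helicase gene, was at 233, 356, 279 and 298 CPM. For both genes the range in CTRL overlapped the range in BU. The 10 genes of the piRNA pathway, which silences transposons in germ cells, all had values below 0 (median -0.37), and none passed. With Neurog3 alone the median was 0.05 and 5 of 9 tested were above 0. Mael, the most abundant of them, was at 756 and 328 CPM in CTRL and at 556 and 283 CPM in BU (adjusted p = 0.595).

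Genes tied to entry into differentiation moved unevenly. Of 8 tested, 2 rose, against 1.07% of all genes. Dmrtb1, a DM-domain factor that coordinates the change from mitosis to meiosis in spermatogonia, was at 12.6 and 7.96 CPM in CTRL against 46.9 and 55.1 CPM in BU (log2 fold change 2.34, SE 0.34, adjusted p = 6.57e-09). Ccnd2, cyclin D2, was at 161 and 69.6 CPM in CTRL and at 322 and 151 CPM in BU, so that the groups overlapped while both experiments rose (log2 fold change 1.04, SE 0.25, adjusted p = 0.00645). Both were called without shared barcodes, neither at the limit of 3.2, and Ccnd2 alone after thinning. With DESeq2 and the block Dmrtb1 alone was called, and with Neurog3 alone and the block neither was. The DNA methyltransferase gene Dnmt3b was at 112, 79.9, 105 and 73.2 CPM (adjusted p = 0.944). Of 11 tested genes of retinoic acid transport, metabolism and reception none passed (median -0.09). In fits without the block the median was -0.07 with all libraries, 0.11 without BU 2 and -0.35 without BU 1. Crabp1, a retinoic acid binding protein gene, was at 185 and 128 CPM in CTRL and 205 and 300.1 CPM in BU (adjusted p = 0.18). Rara, a retinoic acid receptor gene, was at 35.0, 35.7, 36.7 and 22.03 CPM (adjusted p = 0.802). Of 8 tested markers of differentiating and meiotic cells none passed, and their summed level was 537, 809, 699.9 and 846 CPM, with Sycp1 the most abundant.

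Some cell cycle transcripts rose in the BU progenitors with the block. Of 17 mitotic genes 7 rose and none fell, all 17 had a log2 fold change above 0, and the median was 0.88. Over all genes 1.07% rose and 51.8% were above 0. Their summed level was 1048 and 1498 CPM in CTRL and 2425 and 2153 CPM in BU, without overlap. Mki67, which encodes the proliferation antigen KI-67, was at 7.57 and 31.6 CPM in CTRL against 115 and 82.3 CPM in BU (log2 fold change 2.58, SE 0.32, adjusted p = 7.09e-12). Tpx2, a spindle assembly factor, was at 32.7 and 49.0 CPM against 115 and 108 CPM (log2 fold change 1.45, SE 0.29, adjusted p = 0.000217). Top2a, topoisomerase II alpha, was at 55.7 and 101 CPM against 221 and 161 CPM (log2 fold change 1.31, SE 0.27, adjusted p = 0.000382). Aspm, Cenpf, Kif11 and Plk1, which act on the spindle and kinetochore, were the others that rose. Cdc20, an activator of the anaphase-promoting complex, was at 142, 99.6, 210 and 122 CPM and did not pass (adjusted p = 0.578). The experiments differed within CTRL for several of these genes, and CTRL 2 lay near BU 2 for Aspm (35.5 and 35.6 CPM). Mki67 alone of the mitotic list was called without cells that shared a barcode (list median 0.75) and at the limit of 3.2 (median 0.51, 16 of 17 above 0). Without shared barcodes Tpx2 was at a log2 fold change of 1.23, Aspm at 1.21, Kif11 at 1.06, Top2a at 0.96, Plk1 at 0.90 and Cenpf at 0.60. After thinning Mki67 and Top2a were called, and with DESeq2 and the block Tpx2 alone. With Neurog3 alone the median was 0.22, 7 of 12 tested genes were above 0 and none was called. Without CTRL 2, in a fit without the block, the median was 1.16 against 0.77 with all libraries.

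Of 18 S-phase genes 2 rose (against 1.07% of all genes), all were above 0 (against 51.8% of all genes) and the median was 0.69. Rrm2, a subunit of ribonucleotide reductase, was at 8.88 and 5.22 CPM in CTRL against 26.6 and 28.5 CPM in BU (log2 fold change 2.01, SE 0.38, adjusted p = 7.46e-05). Gins2, part of the replicative helicase, was at 25.6 and 20.1 CPM against 46.1 and 51.2 CPM (log2 fold change 1.09, SE 0.32, adjusted p = 0.047). Neither was called without shared barcodes (log2 fold changes of 1.64 and 1.05, list median 0.58), after thinning (0.71) or at the limit of 3.2 (0.46), or with DESeq2, and Gins2 was not called without doublets. With Neurog3 alone the median was 0.32, 8 of 13 tested were above 0 and none was called. The list summed to 1344 and 1267 CPM in CTRL and to 1994 and 1936 CPM in BU, with no overlap.

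Counted in cells thinned to 5000 UMIs, at least 3 UMIs of the mitotic genes were held by 77.9% and 87.5% of CTRL progenitors and by 92.6% and 88.6% of BU progenitors. BU exceeded CTRL by 14.6 percentage points in experiment 1 and by 1.17 points in experiment 2. The p of an exact permutation test (two-sided) was 0.333, the smallest this design allows. At 5 UMIs or more the direction differed between experiments, with 43.4% and 76.0% in experiment 1 (CTRL 1 and BU 1) against 65.5% and 61.4% in experiment 2. For S-phase genes the share with at least 5 UMIs was 69.0% and 67.1% in CTRL and 89.3% and 81.8% in BU, higher in BU within both experiments. The rise in summed mitotic transcripts was therefore matched by a larger share of cells past 5 UMIs in experiment 1 but not in experiment 2.

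Among genes that the study followed in regenerating A_undiff, 7 of 13 tested members rose, none fell and the median log2 fold change was 0.99. The study chose them on A_undiff of the same treatment, so their direction is not independent evidence. Epcam, an adhesion molecule gene, was at 50.7 and 62.2 CPM in CTRL against 182 and 237 CPM in BU (log2 fold change 1.87, SE 0.27, adjusted p = 4.89e-09). Txn1, thioredoxin, was at 42.6 and 41.9 CPM in CTRL and 92.2 and 95.3 CPM in BU (log2 fold change 1.14, SE 0.29, adjusted p = 0.0123), and Usp26, a deubiquitinase gene on the X chromosome, and Kif4, a chromosome-bound kinesin gene, also rose. At the limit of 3.2 without the block, Kif4 turned to -0.11. Without shared barcodes 3 of the 7, Epcam, Igf2 and Mki67, were called, and Top2a, Txn1, Usp26 and Kif4 were not, at log2 fold changes of 0.96, 1.01, 0.81 and 1.37. With DESeq2 and the block Epcam alone of the list was called. With the block in edgeR, Epcam and Mki67 were called at the limit of 3.2 (median 0.70), Epcam, Mki67 and Top2a after thinning, and none of 9 tested with Neurog3 alone (median 0.64). In fits without the block the list's median was 0.86 with all libraries and 1.57 without CTRL 2. Igf2, the growth factor gene, passed the test (adjusted p = 0.000254) on BU 1 alone, with 48 UMIs there and 0 in BU 2, against 27 and 14 UMIs in CTRL 1 and CTRL 2. Of 12 tested genes of GDNF and FGF signalling, 10 were above 0 (median 0.49, against 51.8% of all genes above 0) and none passed. In fits without the block the median was 0.49 with all libraries, 0.01 without BU 1 and 0.06 without CTRL 2. Of 16 genes of mTORC1 and its regulators none passed (median -0.24). In fits without the block the median was -0.26 with all libraries, 0.06 without CTRL 1, 0.16 without BU 2 and -0.48 without BU 1.

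**Figure D3:**
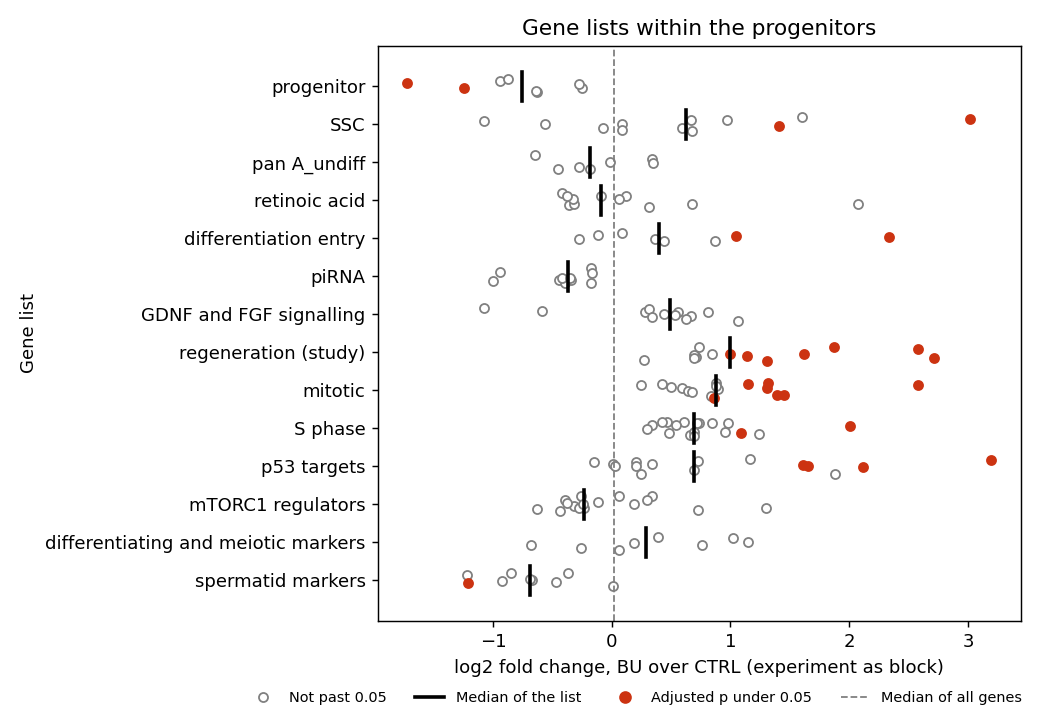
Log2 fold changes (x axis, BU over CTRL with experiment as block) of tested members of 14 gene lists (y axis) within progenitors. Red points passed an adjusted p of 0.05, bars are list medians and the dashed line is the median of all 12564 genes. The 17 mitotic genes lie to the right of 0, with 7 called, and the 8 progenitor genes to the left, with 2 called.

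Targets of p53, the transcription factor activated by DNA damage, rose in part. Of 15 tested 4 rose, none fell, 14 were above 0 (against 51.8% of all genes) and the median was 0.70. These counts and the median include Perp, from whose call nothing is read, as given below. Without the low-count filter the block called 3 of 16, Ccng1, Cdkn1a and Phlda3, but not Perp. In fits without the block the median was 0.76 with all libraries, 0.15 without BU 1, 0.27 without CTRL 2 and 1.22 without BU 2. With the block it was 0.36 after thinning and 0.26 at the limit of 3.2, and with Neurog3 alone, over 7 tested members, it was -0.17. Cdkn1a, which encodes the cell cycle inhibitor p21, was at 11.4 and 9.90 CPM in CTRL and at 71.1 and 29.8 CPM in BU. Both BU libraries were above both CTRL libraries, BU 1 more than BU 2, and the log2 fold change was 2.12 (SE 0.34, adjusted p = 3.62e-07). Ccng1, cyclin G1, was at 49.7 and 41.5 CPM in CTRL against 181 and 114 CPM in BU (log2 fold change 1.65, SE 0.28, adjusted p = 3.58e-06). Phlda3, an inhibitor of AKT signalling, was at 17.1 and 10.5 CPM against 50.8 and 33.7 CPM (log2 fold change 1.61, SE 0.33, adjusted p = 0.000455). Perp, an apoptosis effector gene, was called on 4, 6, 6 and 5 UMIs (adjusted p = 0.0455). It was at 0.404 and 0.401 CPM in CTRL and at 4.69 and 3.24 CPM in BU. The low-count filter kept Perp through its BU level, so nothing is read from this call. Mdm2, the ubiquitin ligase that restrains p53, was at 103, 83.9, 110 and 81.0 CPM (adjusted p = 0.996), and Bax, which permeabilises mitochondria in apoptosis, was at 409, 296, 502 and 393 CPM (adjusted p = 0.616). Cdkn1a and Ccng1 were called also without cells sharing a barcode, after thinning and with the limit of 3.2, while Phlda3 and Perp were called under none of these. With Neurog3 alone and the block none of the 7 tested targets was called. Without shared barcodes Phlda3 was at a log2 fold change of 1.35 and Perp at 3.61.

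The stretches before the start of Cdkn1a and Ccng1 are shown because both genes rose and both hold the decamer of the p53 response element. A full element is a pair of decamers with up to 13 bases between them. Sequences are those of RefSeq on GRCm38.p6, read 5′ to 3′ on the strand of the gene, and capitals mark matches to the p53 decamer motif. Cdkn1a is shown at chr17:29090876-29090967 (plus strand), with matches that begin 73 and 51 bases before the start and a spacer of 12 bases. Ccng1 is shown at chr11:40755432-40755501 (minus strand), with 1 match that begins 185 bases before the start.
Cdkn1a: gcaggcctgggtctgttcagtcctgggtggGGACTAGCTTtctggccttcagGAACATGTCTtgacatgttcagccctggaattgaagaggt
Ccng1: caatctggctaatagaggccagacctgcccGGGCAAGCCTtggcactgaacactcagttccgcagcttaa
Of 32851 mouse promoter windows (250 bases before to 50 after a start), 8.36% held at least 1 match and 0.0731% held a pair. The motif reads the same on both strands. Of the 16 p53 targets listed, 12 had a window (16 windows in all), 6 had a match and Cdkn1a alone had a pair. These are counts of genes, some with more than 1 window, and are not set against the shares of windows. Mdm2, which did not pass, also had a match, so a match in this window did not separate genes that rose from genes that did not. The motif and the genes shown were chosen after their values were seen, and a match is a description of letters, not of binding.

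The largest rises among genes at 20 CPM or more that moved the same way in both experiments were Pcsk1n, Cd63, Mki67, Hist1h1a, Dmrtb1, Cited1, Cdkn1a, Epcam, Ccnd1 and Gnai1. Pcsk1n, a proprotein convertase inhibitor gene, was at 5.75 and 4.21 CPM in CTRL against 29.7 and 42.1 CPM in BU (log2 fold change 2.85, SE 0.38, adjusted p = 1.55e-10). Cd63, a tetraspanin gene of late endosomes, was at 28.5 and 18.3 CPM against 151 and 148 CPM (log2 fold change 2.701, SE 0.30, adjusted p = 1.56e-15). Cited1, a transcriptional co-regulator gene on the X chromosome, was at 22.3 and 14.2 CPM against 73.4 and 104 CPM (log2 fold change 2.30, SE 0.31, adjusted p = 5.1e-10). These genes separated the conditions in both experiments, with every BU library at more than 3 times the higher CTRL library. Ccnd1, cyclin D1, was at 35.0 and 33.1 CPM in CTRL against 119 and 132 CPM in BU, and Gnai1, a G-protein subunit gene, at 7.67 and 10.97 CPM against 24.997 and 38.2 CPM. The linker histone gene Hist1h1a was at 1.72 CPM in CTRL 1 but 57.9 CPM in CTRL 2, against 76.6 and 72.6 CPM in BU, so its rise lay mainly in experiment 1. Of the 10 rises, Gnai1 was not called without shared barcodes (log2 fold change 1.31, edgeR adjusted p = 0.252). After thinning Cd63, Mki67, Cdkn1a, Epcam and Ccnd1 were called, and Pcsk1n, Hist1h1a, Dmrtb1, Cited1 and Gnai1 were not. At the limit of 3.2, Cd63, Mki67, Hist1h1a, Cdkn1a and Epcam were called and the other rises named were not. With DESeq2 and the block Mki67, Hist1h1a and Gnai1 were not called. With Neurog3 alone and the block, 12 of the genes with the largest changes in either direction could be tested and none was called.

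Among the largest falls were those of Ifitm1, Mobp, Tubb2b, Upp1, Onecut2, Oasl2, Gbp2, Dlgap1 and H2-M3. Ifitm1 was at 74.5 and 58.7 CPM in CTRL against 8.59 and 7.78 CPM in BU (log2 fold change -3.03, SE 0.38, adjusted p = 8.55e-12), a level 8.14 times lower. Mobp, a myelin protein gene, was at 52.2 and 38.1 CPM against 9.37 and 12.96 CPM (log2 fold change -1.99, SE 0.37, adjusted p = 4.79e-05). Tubb2b, a beta-tubulin gene, was at 41.8 and 30.2 CPM against 11.7 and 8.42 CPM (log2 fold change -1.85, SE 0.38, adjusted p = 0.000437). Oasl2, an oligoadenylate synthetase-like gene, was at 102 and 91.2 CPM against 29.7 and 35.0 CPM (log2 fold change -1.58, SE 0.31, adjusted p = 0.000138). Gbp2, a guanylate-binding protein gene, was at 37.1 and 28.6 CPM against 13.3 and 10.4 CPM, and H2-M3, a nonclassical MHC class I gene, at 33.8 and 35.0 CPM against 13.3 and 13.6 CPM. The transcription factor gene Onecut2 was at 42.5 and 63.3 CPM against 17.2 and 16.8 CPM. No BU library of these genes reached a CTRL library. Without shared barcodes Onecut2, Gbp2, Dlgap1 and H2-M3 were not called (edgeR adjusted p-values of 0.0523, 0.258, 0.199 and 0.176), at log2 fold changes of -1.52, -1.26, -1.34 and -1.34. After thinning Ifitm1, Mobp, Upp1 and Oasl2 were called among the falls named. At the limit of 3.2, Ifitm1 and Upp1 were called among the falls named. With DESeq2 and the block Tubb2b, Onecut2, Gbp2, Dlgap1 and H2-M3 were not called, nor were Dlgap1 and H2-M3 at a mitochondrial limit of 10%. No fall named was called with Neurog3 alone and the block.

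**Figure D4:**
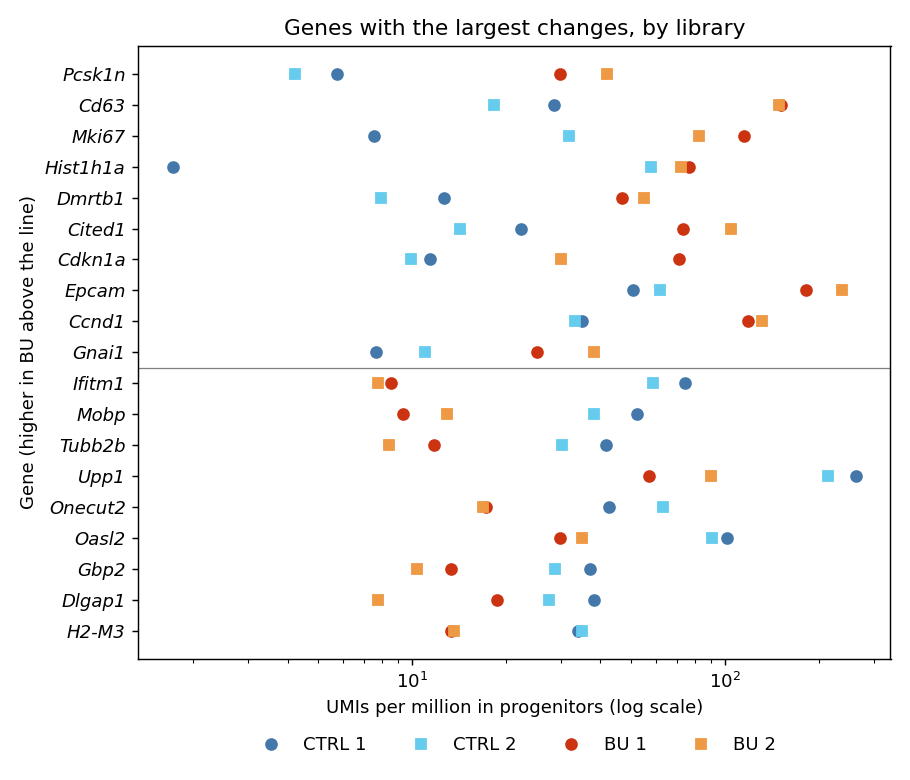
Levels in progenitors (x axis, CPM on a log axis) of the 10 largest rises (above the line) and of 9 of the largest falls (below it) after BU, with 1 symbol per library. BU and CTRL libraries do not overlap for these 19 genes, and Hist1h1a in CTRL 2 (57.9 CPM) lies closest to BU (72.6 and 76.6 CPM).

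RNA of other cell types was sought with fixed marker lists. The 9 spermatid genes summed to 770.1 and 1240 CPM in CTRL and to 475 and 628 CPM in BU, with Prm2, a protamine gene, the most abundant. Prm2 fell in BU progenitors (369 and 382 against 162 and 166 CPM, log2 fold change -1.21, adjusted p = 0.000217). Without shared barcodes it was not called (log2 fold change -0.64, adjusted p = 0.596), no spermatid gene was, and the list's median went from -0.69 to -0.11 with 4 of 9 above 0. At the late-gene limit of 0.1% the median was 0.08, and no spermatid gene was called. In fits without the block the spermatid median was -0.72 with all libraries. It was -0.24 without CTRL 2, -0.50 without BU 1, -1.14 without CTRL 1 and -1.19 without BU 2. In Gfra1+ cells Prm2 was at 724 and 170 CPM in CTRL and at 284 and 326 CPM in BU, lower in BU in experiment 1 and higher in experiment 2. The 15 somatic genes summed to 28.5, 29.6, 31.2 and 28.5 CPM, with the Sertoli gene Cst12 the most abundant and Hsd3b1 and Ptprc, markers of Leydig and white blood cells, at 0 in all libraries. Erythroid genes summed to 0.505 and 0.736 CPM in CTRL and to 0 and 1.30 CPM in BU. Both BU libraries were below both CTRL libraries for the spermatid sum, while the somatic sums overlapped. The part of spermatid RNA in other differences was not tested.

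Whether progenitors and Gfra1+ cells responded differently to BU was tested as the difference between their BU effects on all 13655 genes measured in either. The 2 classes came from the same libraries, each library serving as its own block. The effect differed for 24 genes (0.176%), with 16 more positive in progenitors (0.117%) and 8 more negative (0.0586%). Without BU 2 these numbered 6 and 0, and without CTRL 2 they numbered 17 and 31. With the effect of experiment also allowed to differ between classes, 289 genes passed (2.12%), 129 more positive (0.945%) and 160 more negative (1.17%). Without cells that shared a barcode 19 passed. In Gfra1+ cells by themselves no gene of 13017 passed with or without the block (edgeR), and 1307 and 534 had an unadjusted p under 0.05.

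Of the genes named for this test, which had a mean of 20 CPM or more over both classes, Cited1 showed the largest difference, with a log2 difference of 2.22 (SE 0.23, adjusted p = 0.000511). It was at 22.3, 14.2, 73.4 and 104 CPM in progenitors, and at 17.7, 13.8, 11.2 and 19.3 CPM in Gfra1+ cells, so its BU level stood apart in progenitors. Pcsk1n, below that mean, had a log2 difference of 2.60 (edgeR adjusted p = 0.00629). Dmrtb1 behaved in a like manner (log2 difference 2.21, SE 0.30, adjusted p = 0.00526), with 20.3, 9.21, 9.88 and 17.9 CPM in Gfra1+ cells. Esx1, a homeobox gene on the X chromosome, was at 19.3, 19.2, 47.7 and 71.3 CPM in progenitors and at 12.6, 9.58, 7.70 and 11.4 CPM in Gfra1+ cells (log2 difference 1.69, SE 0.27, adjusted p = 0.0164). Cd63 had the more positive effect in progenitors (log2 difference 1.42, SE 0.27, adjusted p = 0.0443), where CTRL stood at 28.5 and 18.3 CPM against 51.3 and 85.1 CPM in Gfra1+ cells. In BU the classes were close, at 151 and 148 against 150.3 and 156 CPM. For Prr7, a transmembrane adaptor gene, and Phlda2 the BU libraries lay below the CTRL libraries in Gfra1+ cells. Prr7 was at 21.1, 31.9, 5.09 and 9.49 CPM there and at 39.6, 64.1, 31.2 and 56.4 CPM in progenitors. Phlda2 was at 17.7, 19.3, 2.47 and 4.40 CPM in Gfra1+ cells and at 94.6, 82.8, 47.7 and 56.4 CPM in progenitors.

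Of the 8 genes with a more negative effect in progenitors, the 6 named by the same rule were Trf, Man2a1, Klf2, Hes1, Egr1 and Slc25a5. Hes1, a Notch effector, was at 51.3 and 51.2 CPM in CTRL and 34.4 and 27.9 CPM in BU progenitors, against 77.8, 80.5, 91.3 and 96.9 CPM in Gfra1+ cells (log2 difference -1.12, SE 0.19, adjusted p = 0.0198). Klf2, a Krüppel-like factor gene, was at 76.9, 47.0, 57.8 and 34.3 CPM in progenitors against 40.7, 35.9, 78.1 and 56.9 CPM in Gfra1+ cells (log2 difference -1.36, SE 0.20, adjusted p = 0.00896). Egr1, an immediate early gene, was at 63.1, 83.8, 64.1 and 51.8 CPM against 75.1, 90.8, 118 and 122 CPM (log2 difference -1.03, SE 0.17, adjusted p = 0.0164). The transferrin gene Trf differed by -1.45, the mannosidase gene Man2a1 by -1.37 and the ADP/ATP carrier gene Slc25a5 by -0.93 on the log2 scale. Of the retinoic acid genes, Crabp1 alone passed this test. It was at 124 and 94.7 CPM in CTRL and 62.5 and 86.7 CPM in BU Gfra1+ cells, with higher levels after BU in progenitors (log2 difference 1.11, SE 0.13, adjusted p = 0.00183).

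The difference of effects did not pass for the p53 targets, which does not show equal effects. Cdkn1a had a log2 fold change of 2.12 in progenitors and 2.37 in Gfra1+ cells, Ccng1 1.65 and 1.95, and Phlda3 1.61 and 1.82. Ifitm1 had -3.03 and -4.38, Oasl2 -1.58 and -2.09, and Lin28a -1.24 and -1.35. For Upp1 the values were -1.72 in progenitors and -2.96 in Gfra1+ cells, whose BU libraries held it at 8.29 and 5.14 CPM. Its log2 difference of 1.34 (SE 0.27) was at an adjusted p of 0.067 (edgeR), and passed with the block (adjusted p = 6.06e-06).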

How the data were processed

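Raw UMI counts for 4 libraries were deposited by the authors as filtered Cell Ranger output (version 3.0.2 per the file headers), not normalised. The paper gives the mm10 reference and kit version 2 for all libraries, whereas the submitters' processing notes name GRCm39 and Seurat 3.2 and the labels give kit 3.1 for experiment 2. The 27514 genes listed in all libraries were kept. UMIs of progenitors and of Gfra1+ cells were summed per library and compared by the quasi-likelihood test of edgeR 4.0.16 after filterByExpr and TMM scaling, with Benjamini-Hochberg adjustment at 0.05, leaving out the 11 genes that chose the cells. DESeq2 1.42.0 was an alternative. Doublets were marked by the scrublet method of scanpy 1.11.5 at 0.8% per 1000 cells. The scripts were tested on simulated data.

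Experiment numbers pair libraries, because the labels tie a number to a kit version and the paper gives each experiment a shared lane. The first principal component (52.2% of variance) separated the experiments. The block reduced the biological coefficient of variation from 0.325 to 0.203. A smaller p-value with the block was not always a smaller error. For Ifitm1 the SE was 0.370 without the block and 0.382 with it, while the edgeR adjusted p went from 0.342 to 8.55e-12. With n = 2 pools of 3 mice per group, the number of libraries limits precision. Members and lists were chosen with earlier results of these data known. Named genes were the 10 largest rises and falls among calls of the same direction in both experiments at a mean of 20 CPM or more (6 each for the other comparisons), taken from the block because no gene passed without it. Within lists, up to 4 of the most abundant members and those called were named, and others named beside them were chosen after their values were seen. Alternatives were other tools, filters, depths and choices of cells, and each library left out. One gene that met the rule is not reported here.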

Additional observations from a re-analysis of the deposited data

Results flagged for a closer look

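The effect of BU differed between progenitors and Gfra1+ cells for 24 genes by the test of that difference, 0.176% of those tested. Among the named genes the log2 difference (progenitors minus Gfra1+ cells) was 2.22 for Cited1, 2.21 for Dmrtb1, 1.69 for Esx1, 1.48 for Prr7, 1.47 for Phlda2 and 1.42 for Cd63. It was -1.45 for Trf, -1.37 for Man2a1, -1.36 for Klf2, -1.12 for Hes1, -1.03 for Egr1 and -0.93 for Slc25a5. For Cited1, Dmrtb1 and Esx1 the levels in Gfra1+ cells changed by less than the spread between experiments, and for Prr7 and Phlda2 both BU libraries of Gfra1+ cells were below both CTRL libraries. With 2 libraries per group no outlier could be sought.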

How the results depend on the processing

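The lower share of progenitors in BU kept its direction under each of the 11 alternatives run, with a difference between -38.3 and -5.26 percentage points. Called genes between BU and CTRL numbered 0 without the block under thinning, left-out doublets, a mitochondrial limit of 10%, a late-gene limit of 0.1%, Neurog3 alone, left-out shared barcodes, RLE scaling and the limit of 3.2. They numbered 181 with the replicate block, 55 without a low-count filter and 16 with DESeq2. With the block they were 18 after thinning, 176 without doublets, 115 at the mitochondrial limit of 10%, 177 at the late-gene limit of 0.1%, 3 with Neurog3 alone, 46 without shared barcodes, 22 at the limit of 3.2, 143 without the filter, 170 with RLE and 25 with DESeq2. Leaving out a library in the fit without the block gave 0 to 30 genes. The lone sample of a group was then assumed to vary like the other group, and the 30 came without BU 1. Kif4 was at -0.11 at the limit of 3.2, and Igf2 between -7.003 without BU 1 and 4.31 without BU 2. Genes whose BU effect differed between classes numbered 61 after thinning, 14 without doublets, 326 without the filter, 15 with DESeq2 and 289 with the replicate block. With the block they were 171 after thinning, 137 without doublets and 215 without shared barcodes. Leaving out a library gave 6 (without BU 2) to 120 (without CTRL 1). Genes that differed between progenitors and Gfra1+ cells numbered 2337 after thinning and 3633 to 4443 with a library left out. Alternatives with shared barcodes, the limit of 3.2 in the test, and other tools with the block were chosen after seeing the data. The causes of these differences were not tested. The BU progenitors held 1281964 and 1548238 UMIs, so a gene at 1 CPM there rests on 1 or 2 UMIs.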
